A study of Mus musculus with 14 samples.

Results

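Transcripts of 7 MHC class II genes, namely H2-Aa, H2-Ab1, H2-Eb1, H2-DMa, H2-DMb1, Cd74, and Ciita, were examined in bulk RNA-seq of mouse plexiform neurofibromas (PNs), which are benign nerve tumors. The genes were taken by symbol from the table of read counts, which holds 24062 genes, and all 7 were found and passed the expression filter of every comparison. The libraries came from control dorsal root ganglia (DRGs) of Nf1fl/fl mice (n = 3) and from PNs of Dhh-Cre;Nf1fl/fl mice (n = 11). Tumor volume was read by MRI at 7 months of age and again 2 months later, and the slow-growing group (n = 5) holds PNs whose volume differed by under 5 mm3 between the scans, while the fast-growing group (n = 6) holds PNs that gained over 35 mm3. All mice carried floxed Nf1 alleles on a mixed C57BL/6, I-129, and FVBN background and received no drug, and tissue was taken at 9 months of age. Controls carried no Cre, whereas in the PN mice Dhh-Cre acts in the Schwann cell lineage. The tissue was not sorted, and the controls were ganglia with their nerves.

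MHC class II molecules carry peptides from endocytosed proteins to the cell surface, where CD4+ T cells read them. The alpha and beta chains are assembled on the invariant chain, which fills the peptide groove until proteases of the endosome degrade it, and the DM heterodimer then exchanges its last fragment for antigenic peptides. Dendritic cells, macrophages, and B cells transcribe these genes constitutively, and interferon gamma can switch them on in other cells, in each case through the transactivator CIITA. CIITA does not bind DNA itself. It is recruited by the RFX, CREB, and NF-Y factors that sit on the X and Y boxes of class II promoters.

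The promoters at hand were read for these boxes. For 4 of the 7 members, H2-Aa, H2-Eb1, H2-DMa, and H2-DMb1, RefSeq promoter sequences on GRCm38.p6 were at hand, and the 250 bases before each start were searched on both strands for the Y box TGATTGG, the X1 box AACNGATG, and the X2 box TGACGTCA, motifs chosen after the sequences had been read. The 170 bases before the starts of H2-Aa, at chr17:34287824-34287993 on the minus strand, and of H2-Eb1, at chr17:34305697-34305866 on the plus strand, are printed because these promoters belong to an alpha and a beta chain. Capitals mark the motifs, with the X box on the left and the Y box on the right.
H2-Aa: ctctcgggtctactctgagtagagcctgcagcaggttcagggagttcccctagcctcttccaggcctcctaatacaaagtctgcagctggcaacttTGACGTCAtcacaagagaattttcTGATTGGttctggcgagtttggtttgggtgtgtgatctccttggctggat
H2-Eb1: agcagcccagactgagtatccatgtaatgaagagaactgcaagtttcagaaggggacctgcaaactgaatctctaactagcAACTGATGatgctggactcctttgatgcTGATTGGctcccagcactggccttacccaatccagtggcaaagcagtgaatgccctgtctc
In H2-Aa the Y box began at position -50 and the X2 box at position -74, counted from the start. In H2-Eb1 the Y box began at position -61 and the X1 box at position -89, and in H2-DMb1 they began at -63 and -92. An X box followed 15 to 45 bases later by a Y box was thus present in 3 of the 4 members with a sequence, and in 15 (0.0457%) of the 32851 promoters of the table. The Y box alone was present in 7.23%, the X1 box in 1.98%, and the X2 box in 1.55% of these promoters. Neither of the 2 annotated starts of H2-DMa had these letters within the window. Outside the members, H2-DMb2 and H2-Eb2 also had both boxes, and H2-Oa and H2-Ob had the Y box.

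**Figure D1:**
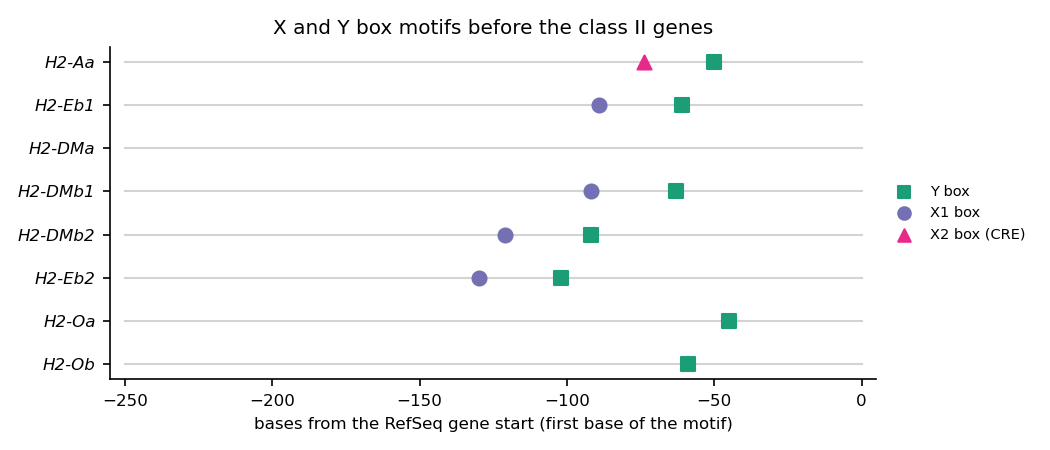
Positions of X and Y box motifs in the 250 bases before the RefSeq starts of class II genes. The x axis gives the distance of the first base of a motif from the start, in bases, and each row is a gene; in H2-Aa, H2-Eb1, H2-DMb1, H2-DMb2, and H2-Eb2 an X box lies upstream of the Y box, and H2-DMa has no symbol.

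Library totals ran from 9596773 to 17594164 counts. Levels are given as CPM, the counts divided by the TMM-scaled library total and put on a common scale, on which 3 counts, a floor that covers counting error only, correspond to 0.167 to 0.313 CPM. Every value of the members lay above this floor. No pair of libraries had identical counts. Nf1 was counted at 129 to 228 CPM in controls and at 225 to 294 CPM in PNs. Counts over the whole gene include reads from Nf1 exons that are not floxed and from other cells, and could not check the genotype. The controls held skeletal muscle transcripts (15 markers, summed level 13064 to 46233 CPM) and fat transcripts (13 markers, 5020 to 7650 CPM), with at most 14915 and 4005 CPM in slow-growing PNs and 9320 and 446 CPM in fast-growing PNs. Controls DRG4 and DRG5 also held lymphocyte transcripts: the summed level of 8 B cell markers was 302 and 335 CPM in these libraries and 9.95 CPM in DRG3, and that of 10 T cell markers was 408, 233, and 13.1 CPM. Their Ccl19, a chemokine of lymphoid stroma, was at 95.8 and 44.0 CPM, against 1.97 CPM in DRG3. The fold changes of the 7 members against controls are therefore also given without DRG4 and DRG5. The within-library ratios and the other genes of the pathway were compared with all 3 controls. Among PNs, T or B cell markers were highest in 1079, 1179, and 1191. The sensory neuron markers of ganglia were present in all PNs, but their summed level in fast-growing PN 1191 was 26.5 CPM, against 2774 CPM in the lowest slow-growing PN.

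H2-Aa encodes the alpha chain and H2-Ab1 the beta chain of the I-A molecule, and H2-Eb1 encodes the beta chain of I-E. H2-Aa was at 84.7, 843, and 583 CPM in controls DRG3, DRG4, and DRG5. It was at 133, 443, 117, 48.1, and 95.7 CPM in slow-growing PNs 1079, 1198A, 1202, 1203, and 1206. In fast-growing PNs it ranged from 314 to 1478 CPM, with a median of 871 CPM. Thus 4 of the 5 slow-growing PNs lay below every fast-growing PN, while 1198A lay between fast-growing PNs 1071 (314 CPM) and 1214 (412 CPM) on one side and the other fast-growing PNs on the other. Control DRG3 lay among the slow-growing PNs and DRG4 and DRG5 among the fast-growing PNs, while 4 fast-growing PNs lay above every control and slow-growing PN 1203 lay below every control.

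H2-Ab1 had the same order of groups. Its level was 66.4, 575, and 439 CPM in the controls, 71.5, 231, 54.9, 20.4, and 61.1 CPM in the slow-growing PNs, in the order given above, and 158 to 878 CPM (median 476) in the fast-growing PNs. H2-Eb1 was at 34.0, 302, and 233 CPM in controls, at 21.2, 120, 15.4, 8.88, and 28.9 CPM in slow-growing PNs, and at 96.6 to 481 CPM (median 214) in fast-growing PNs. For both beta chains, 1198A was again the only slow-growing PN that reached the range of the fast-growing PNs.

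The spread over the 11 PNs was wide. The highest level was 30.7 times the lowest for H2-Aa, 43.0 times for H2-Ab1, and 54.2 times for H2-Eb1. PN 1203 was lowest and PN 1179 highest for each of these chains.

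**Figure D2:**
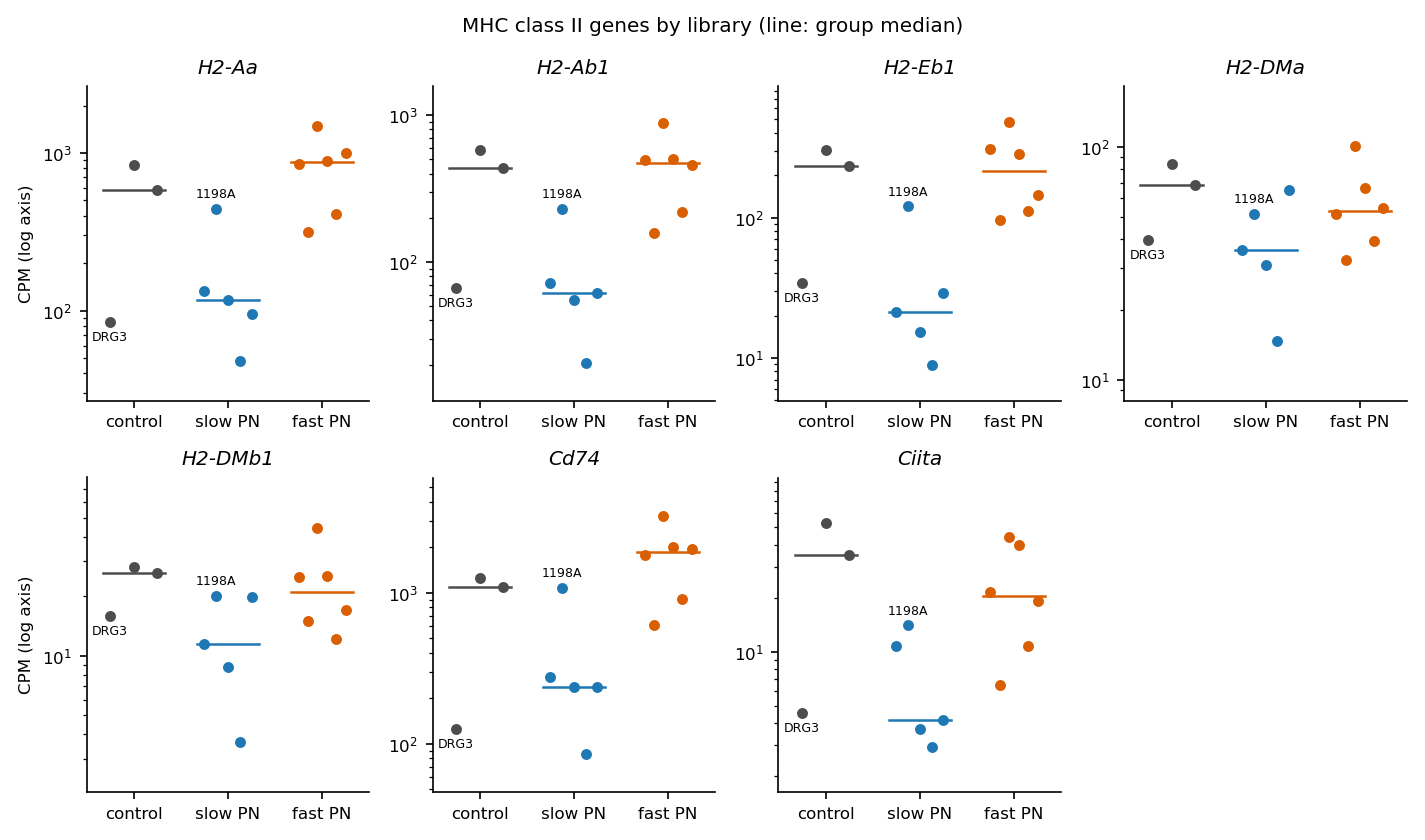
Level of each of the 7 MHC class II genes in every library, as CPM on log axes that differ between panels. Points are libraries, in control (n = 3), slow-growing (n = 5), and fast-growing (n = 6) groups, and lines are group medians; for H2-Aa, H2-Ab1, H2-Eb1, and Cd74, slow-growing PN 1198A sits within the range of the fast-growing PNs, the other slow-growing PNs sit below it, and control DRG3 sits apart from DRG4 and DRG5.

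The DM genes encode the alpha and beta subunits of the peptide editor. H2-DMa was at 39.8, 84.1, and 68.7 CPM in controls, at 36.0, 51.5, 31.1, 14.6, and 65.1 CPM in slow-growing PNs, and at 32.5 to 101 CPM (median 52.9) in fast-growing PNs. H2-DMb1 was at 15.9, 28.1, and 26.2 CPM in controls, at 11.4, 20.1, 8.78, 3.66, and 19.9 CPM in slow-growing PNs, and at 12.2 to 44.3 CPM (median 21.1) in fast-growing PNs. The groups overlapped for both subunits, and their spread over PNs, 6.94 times for H2-DMa and 12.1 times for H2-DMb1, was narrower than that of the chains. H2-DMb1 shares 96.0% of 1045 aligned transcript bases with its neighbor H2-DMb2, so its counts depend on how reads that match both were treated, which is not given in the sources used here. H2-DMb2 itself was low, with at most 14.3 CPM (DRG4).

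Ciita encodes the transactivator. It was at 4.54, 52.8, and 35.1 CPM in controls. In slow-growing PNs it was at 10.8, 14.1, 3.68, 2.93, and 4.14 CPM, and in fast-growing PNs at 6.48 to 44.2 CPM (median 20.4). Slow-growing PNs 1079 and 1198A reached the range of the fast-growing PNs, whose lowest library was 1071. The gene lies on chr16:10480059-10528418, and 329 bases of its annotated exons overlap Dexi on the opposite strand. Whether strand was used in counting is not given in the sources used here, so reads of Dexi cannot be told apart there.

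Cd74, the invariant chain, is also a cell surface receptor for the cytokine MIF. It was at 125, 1257, and 1098 CPM in controls and at 275, 1078, 236, 85.9, and 238 CPM in slow-growing PNs. In fast-growing PNs it ranged from 607 to 3211 CPM, with a median of 1856 CPM. As for the chains, 1198A was the only slow-growing PN within the range of the fast-growing PNs, and DRG3 lay below DRG4 and DRG5. Cd74 lies on chromosome 18 from 60803848 to 60812652 in mm10.

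The other members are annotated on chromosome 17 within the MHC, H2-DMa from 34119541 to 34139101, H2-DMb1 from 34153072 to 34160230, H2-Ab1 from 34257689 to 34269419, H2-Aa from 34282744 to 34287823, and H2-Eb1 from 34305867 to 34316674 (GENCODE on mm10). For H2-DMa, 360 exon bases overlap Brd2 on the opposite strand. Levels were compared between genes only per kilobase of annotated exon. On that scale the median over the 14 libraries was 590 CPM per kilobase for Cd74, followed by 113 for H2-Aa, 87.8 for H2-Ab1, 59.5 for H2-Eb1, 14.9 for H2-DMa, 11 for H2-DMb1, and 1.30 for Ciita. Cd74 was above H2-Aa, H2-Ab1 above H2-Eb1, and H2-DMb1 above Ciita in 14 of 14 libraries. Over all 14 libraries H2-Aa was above H2-Ab1 in 11, and the mean of their log2 ratio, 0.26, equaled its SD of 0.26. The order differed by group, with H2-Aa above H2-Ab1 in every PN. In controls H2-Aa was below H2-Ab1, at 22.3 against 25.8 (DRG3), 222 against 224 (DRG4), and 154 against 171 CPM per kilobase (DRG5). H2-Eb1 was above H2-DMa in 12 and H2-DMa above H2-DMb1 in 13 of the 14 libraries.

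Whether growth went with class II transcripts was addressed by comparing fast-growing with slow-growing PNs. All 7 members had a positive log2 fold change, and none passed an adjusted p of 0.05 in the edgeR quasi-likelihood test after adjustment over all genes (Benjamini-Hochberg). In this comparison 196 of 15465 genes (1.27%) were called, 0.802% higher and 0.466% lower in fast-growing PNs. The log2 fold change was 2.30 ± 0.59 (standard error) for H2-Aa (adjusted p = 0.0652), 2.36 ± 0.62 for H2-Ab1 (adjusted p = 0.0684), and 2.60 ± 0.71 for H2-Eb1 (adjusted p = 0.0765). It was 2.18 ± 0.63 for Cd74 (adjusted p = 0.0852) and 1.72 ± 0.57 for Ciita (adjusted p = 0.121). The DM genes had smaller values, 0.53 ± 0.38 for H2-DMa (adjusted p = 0.453) and 0.86 ± 0.45 for H2-DMb1 (adjusted p = 0.306). At an unadjusted p under 0.05, 5 of the 7 members were higher, all but the DM genes, against 11.9% of all genes. The median log2 fold change was 2.18 over the members and -0.03 over all genes tested. None of the members had groups that did not overlap, against 3.04% of all genes.

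The call in this comparison turned on 1 library and on the tool. Without slow-growing PN 1198A, 4 members passed in edgeR, with log2 fold changes of 3.07 for H2-Aa (adjusted p = 0.00762), 3.12 for H2-Ab1 (adjusted p = 0.0104), 3.67 for H2-Eb1 (adjusted p = 0.00703), and 3.06 for Cd74 (adjusted p = 0.00966), while 7.65% of all genes passed. By DESeq2, 5 members passed, the 3 chains, Cd74, and Ciita, with adjusted p between 0.00168 and 0.0300, against 9.17% of all genes. By limma voom, 0 members passed. The share of all genes that passed by limma voom is not given here, so this count has no background to be read against. The p-values measure the spread between these libraries.

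Compared with controls, the slow-growing PNs had lower values for all 7 members. The log2 fold change was -1.66 ± 0.81 for H2-Aa, -2.10 ± 0.81 for H2-Ab1, -2.35 ± 0.91 for H2-Eb1, -0.75 ± 0.45 for H2-DMa, -0.93 ± 0.50 for H2-DMb1, -1.18 ± 0.87 for Cd74, and -2.17 ± 0.76 for Ciita (standard errors, edgeR). None passed the adjusted threshold, where 11.3% of 15714 genes did, 4.12% higher and 7.13% lower. The lowest adjusted p was 0.0994, for Ciita. At an unadjusted p under 0.05, H2-Ab1, H2-Eb1, and Ciita were lower, 3 of 7 members against 17.0% of all genes. By DESeq2, these 3 genes passed with adjusted p of 0.0480, 0.0446, and 0.0299, against 19.7% of all genes. In edgeR, Ciita passed without control DRG3 (-2.68, adjusted p = 0.0257, against 15.3% of all genes), and H2-Ab1 and H2-Eb1 passed without slow-growing PN 1198A (adjusted p = 0.0473 and 0.0285, against 9.57%). Without DRG4 and DRG5, the direction turned for 5 members, H2-Aa (0.95), H2-Ab1 (0.37), H2-Eb1 (0.16), Cd74 (1.58), and Ciita (0.62). H2-DMa and H2-DMb1 were at -0.04 and -0.35. DRG3 was the only control in that fit, so its values are given without a test.

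Against controls, the fast-growing PNs had positive values for the chains and Cd74 and negative values for the DM genes and Ciita. The log2 fold change was 0.64 ± 0.68 for H2-Aa, 0.25 ± 0.68 for H2-Ab1, 0.24 ± 0.70 for H2-Eb1, -0.23 ± 0.37 for H2-DMa, -0.09 ± 0.40 for H2-DMb1, 0.996 ± 0.720 for Cd74, and -0.46 ± 0.74 for Ciita. None passed in edgeR, where 31.4% of 16037 genes did, 14.8% higher and 16.7% lower, and 0 members had an unadjusted p under 0.05. DESeq2 and limma voom also called 0 members, and no share of all genes is given here for these 2 tools. Without DRG4 and DRG5, the values rose to 3.27 for H2-Aa, 2.76 for H2-Ab1, 2.79 for H2-Eb1, and 3.79 for Cd74. Ciita, H2-DMa, and H2-DMb1 turned to 2.37, 0.52, and 0.53. With DRG3 as the only control, these values are given without a test. The position of the fast-growing PNs thus depended on which controls were used. With muscle and fat marker scores as covariates, the values for H2-Aa and Cd74 turned to -2.12 and -1.49, those for H2-Ab1 and H2-Eb1 to -2.39 and -1.47, and 0 of all 16037 genes passed.

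For all PNs against controls, the log2 fold change was 0.04 ± 0.89 for H2-Aa, -0.35 ± 0.89 for H2-Ab1, -0.39 ± 0.97 for H2-Eb1, -0.40 ± 0.40 for H2-DMa, -0.36 ± 0.48 for H2-DMb1, 0.42 ± 0.93 for Cd74, and -0.95 ± 0.76 for Ciita. None passed in edgeR, where 26.3% of 16283 genes did, 12.9% higher and 13.4% lower, and 0 members had an unadjusted p under 0.05. DESeq2 called 0 members as well, where 5245 of 18671 genes passed, and limma voom called 0 members, where 4291 of 16283 genes passed. Without DRG4 and DRG5, all 7 members were positive. Cd74 was at 3.2, H2-Aa at 2.62, H2-Ab1 at 2.10, H2-Eb1 at 2.10, Ciita at 1.82, H2-DMa at 0.30, and H2-DMb1 at 0.20. DRG3 was then the only control, so these values are given without a test. With muscle and fat covariates, all 7 members were negative, from -1.46 for H2-DMa to -4.81 for H2-Eb1, and H2-Aa and Cd74 turned to -3.40 and -3.08. In that fit 0 members and 547 of 16283 genes passed. All members but Cd74, 6 in number, had an unadjusted p between 0.0170 and 0.0388 (edgeR). No share of all genes at that threshold is given, so this count has no background to be read against. The 3 comparisons with controls share their control libraries.

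**Figure D3:**
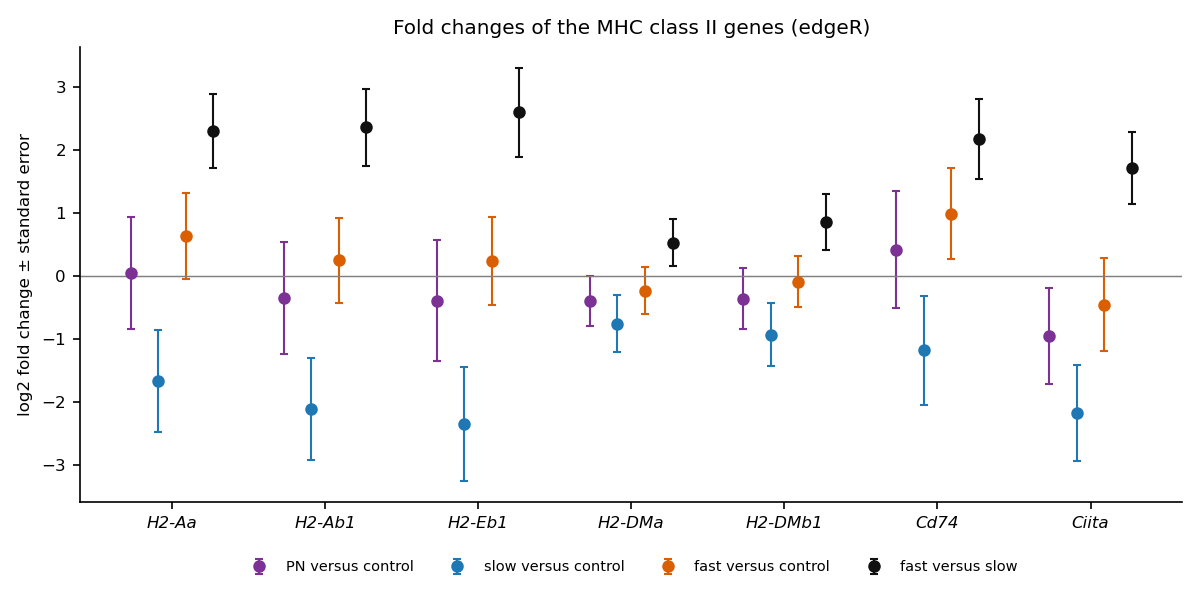
Log2 fold change of the 7 MHC class II genes in each of the 4 comparisons, from edgeR, with bars of 1 standard error. The values of fast-growing against slow-growing PNs are positive for every member and largest for H2-Eb1 (2.60), the values of slow-growing PNs against controls are negative, and none passed an adjusted p of 0.05.

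The ratio of 2 members within a library does not depend on library scaling. All 21 pairs of members were compared between PNs and controls and between fast- and slow-growing PNs, with a two-sided exact permutation test of the mean log2 ratio and adjustment over these 42 tests, a family chosen after the counts had been seen. These ratios of CPM are compared between groups and do not rank the genes. The 21 ratios share members and are not independent, so the number that passed does not count separate results. The share of other gene pairs that would pass the same test was not counted.

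Cd74 relative to H2-Ab1 differed between PNs and controls, while neither gene passed the test by itself. The Cd74 to H2-Ab1 ratio was 1.88, 2.19, and 2.5 in DRG3, DRG4, and DRG5. It was 3.85, 4.67, 4.29, 4.21, and 3.89 in slow-growing PNs 1079, 1198A, 1202, 1203, and 1206, and 3.60 to 4.24 (median 3.92) in fast-growing PNs. The groups did not overlap, and DRG3, which was low in class II, lay on the same side as DRG4 and DRG5. The difference in log2 was 0.89 (exact permutation p = 0.00549, the smallest that 3 against 11 libraries can give; adjusted p = 0.0330). It ranged from 0.78 to 0.99 when libraries were left out singly. The ratio of H2-Aa to H2-Ab1 was also higher in PNs, at 1.57 to 2.35 against 1.28, 1.47, and 1.33 in the controls, a difference in log2 of 0.49 (exact permutation p = 0.00549, adjusted p = 0.0330). Of the other 16282 genes tested, 0.0983% had a ratio to H2-Ab1 that was higher in every PN than in every control, counted with 1 CPM added to each value. H2-Ab1 spread 43.0 times over PNs, so the ratio of a gene that does not vary with it tends to overlap. This share thus does not tell how rare such a shift is among genes that vary with H2-Ab1. H2-Eb1 relative to Cd74 was lower in every PN, at 0.0654 to 0.172 against 0.212 to 0.273 (exact permutation p = 0.00549, adjusted p = 0.0330). With the same limit, 0.178% of genes had a ratio to Cd74 that was lower in every PN. The ratios of Cd74 to H2-Ab1, H2-Aa to H2-Ab1, and H2-Eb1 to Cd74 were 3 of 21 ratios without overlap. In all, 5 ratios, which share members, passed the adjusted threshold. The others were H2-Aa to H2-Eb1 and H2-Aa to Cd74 (adjusted p = 0.0355 for each, exact permutation test). PNs 1202, 1216, and 1079, which held H2-Ea counts, had the highest H2-Aa to H2-Eb1 ratios (7.57, 6.91, and 6.27). The same PNs had the lowest H2-Eb1 to Cd74 ratios (0.0654, 0.075, and 0.077). The longest annotated transcripts of Cd74 and H2-Ab1 have 1410 and 1212 bases with a GC content of 56.6% and 57.3%, and that of H2-Aa has 3223 bases with 46.5%. The part of muscle, fat, and lymphocyte transcripts in these ratios was not tested, and neither was that of H2 alleles.

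Between fast- and slow-growing PNs, the chains differed relative to the DM genes. The H2-Ab1 to H2-DMa ratio was 1.99, 4.49, 1.77, 1.4, and 0.939 in the slow-growing PNs, in the order given above, and 4.85 to 9.65 (median 7.99) in the fast-growing PNs, with no overlap. The difference in log2 was 1.98 (exact permutation p = 0.00433, the smallest that 5 against 6 libraries can give; adjusted p = 0.0330), and it was 1.74 to 2.31 with each PN left out in turn. The ratios of H2-Aa and H2-Eb1 to H2-DMa, and of H2-Eb1 to H2-DMb1, also did not overlap, with differences in log2 of 1.92, 2.39, and 2.03 (adjusted p = 0.0330 for each, exact permutation test). Of all genes, 0.453% had a ratio to H2-DMa, and 0.155% a ratio to H2-DMb1, that was higher in every fast-growing than in every slow-growing PN. These shares too cover all genes and not only those that vary with the members. In all, 10 of the 21 ratios, which share members, passed the adjusted threshold of the exact permutation test. Among them were Cd74 to both DM genes (adjusted p = 0.0331 for each) and the beta chains H2-Ab1 and H2-Eb1 to Ciita (adjusted p = 0.0485 for each). Ratios among the chains and Cd74 did not pass between fast- and slow-growing PNs. The Cd74 to H2-Ab1 ratio differed by only 0.10 in log2 there (exact permutation p = 0.152). In DRG3, which is low in class II, the H2-Ab1 to H2-DMa ratio was 1.67, and in DRG4 and DRG5 it was 6.83 and 6.39. The part of reads shared with Brd2 in H2-DMa, and with H2-DMb2 in H2-DMb1, was not tested.

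**Figure D4:**
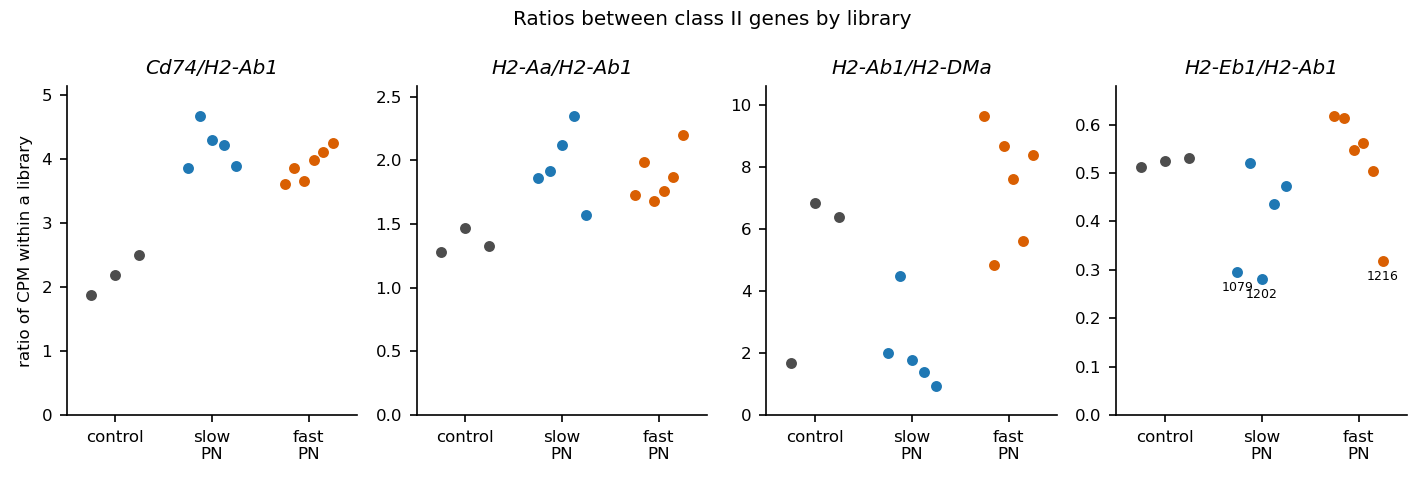
Ratio of CPM between pairs of class II genes within each library, with control (n = 3), slow-growing (n = 5), and fast-growing (n = 6) groups on the x axis and each point a library. Every PN lies above every control for Cd74 to H2-Ab1 and for H2-Aa to H2-Ab1, every fast-growing PN lies above every slow-growing PN for H2-Ab1 to H2-DMa, and PNs 1079, 1202, and 1216 have the lowest H2-Eb1 to H2-Ab1 ratios (0.296, 0.281, and 0.318).

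Over the 11 PNs the members varied together. Pearson's r of log2(CPM + 1) lay between 0.74 and 1.0 for the 21 pairs, and each pair passed a permutation test with 100000 resamples and adjustment over the 21 pairs (largest adjusted p = 0.00598 for Pearson's r and 0.0186 for Spearman's rho). H2-Ab1 and Cd74 had an r of 1.0 and a rho of 0.99 (permutation adjusted p = 4.2e-05 and 7e-05). Ciita correlated with H2-Ab1 at r = 0.93 and rho = 0.97 (permutation adjusted p = 0.00021 and 5.25e-05). The lowest r, 0.74, was that of H2-Aa with H2-DMa. Without the 2 libraries farthest from the median of the first gene of a pair, r lay between 0.48 and 1.0 and 14 pairs passed. The libraries left out differ between pairs. Without 1203 and 1179, r was 0.48 for H2-DMa with H2-Ab1 and with Cd74, so these relations over all PNs rest on those libraries. Without 1203 and 1206, the r of H2-Aa was 0.87 with H2-DMa and 0.88 with H2-DMb1. Within the 6 fast-growing PNs alone, r lay between 0.83 and 1.0 for the 21 pairs, with 0.96 for H2-Ab1 and 0.95 for Cd74 with H2-DMa.

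The levels also followed the markers of mononuclear phagocytes, which include macrophages and monocytes. The summed level of 13 such markers, among them Csf1r, Cd68, and C1qa, was 382 to 1854 CPM in controls, 178 to 1550 CPM in slow-growing PNs, and 844 to 2449 CPM in fast-growing PNs, and no marker was at 0 throughout a group. Over PNs, the mean log2(CPM + 1) of these markers correlated with H2-Aa at r = 0.99 and rho = 0.97 (permutation adjusted p = 0.00021 and 0.00042 over 42 relations of 7 members with 6 marker scores). For Cd74 r was 0.99 and rho 0.96 (permutation adjusted p = 0.00021 and 0.00056), for Ciita both were 0.91 (0.00154 and 0.00149), and for H2-DMa they were 0.75 and 0.69 (0.0198 and 0.0475). Without the 2 libraries farthest from the median score, r was 0.97 for H2-Aa, 0.98 for Cd74, 0.86 for Ciita, and 0.86 for H2-DMa, and within the fast-growing PNs it was 0.93, 0.93, 0.94, and 0.91. Slow-growing PN 1198A had a phagocyte score of 5.70, and the other slow-growing PNs had scores of 3.04 to 4.22, against 5.23 to 6.61 in fast-growing PNs. In bulk tissue, fewer cells of a type and less RNA per cell cannot be told apart.

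With the phagocyte score as a covariate, the log2 fold change of fast-growing against slow-growing PNs was 0.37 for H2-Aa, 0.32 for H2-Ab1, 0.65 for H2-Eb1, 0.15 for Cd74, -0.32 for Ciita, -0.64 for H2-DMa, and -0.51 for H2-DMb1, and none passed in edgeR (adjusted p between 0.520 and 0.826). With the same covariate, H2-Ab1 was lower in PNs than in controls (-0.58, adjusted p = 0.0345, while 35.4% of all genes passed), and Ciita (-1.51, adjusted p = 0.00144) and H2-DMa (-0.83, adjusted p = 0.0118) were lower in fast-growing PNs than in controls, while 38.8% of all genes passed. Cd74 was at 0.28 and 0.12 in these fits and did not pass.

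Dendritic cell markers gave a similar relation for most members. Their score correlated with Ciita at r = 0.94 and rho = 0.94 (permutation adjusted p = 0.00042 and 0.0009) and with H2-Aa at r = 0.87 and rho = 0.92 (0.00233 and 0.00149), while for H2-DMa the r and rho were both 0.68 (permutation adjusted p = 0.0529 and 0.0496). The summed level of the 10 markers was 39.5 to 190 CPM in controls, 28.9 to 59.4 CPM in slow-growing PNs, and 37.7 to 173 CPM in fast-growing PNs. B cell markers correlated with H2-Aa at r = 0.03 and rho = -0.11, and T cell markers at r = -0.02 and rho = 0.17 (permutation adjusted p between 0.782 and 0.993). Within the 6 fast-growing PNs, r with B cell markers was 0.66 for H2-Aa, 0.84 for H2-DMa, and 0.85 for H2-DMb1, and r with T cell markers was 0.47 for H2-Aa and 0.74 for Ciita, values given as a description with no test. PN 1079, with 94.5 CPM of B cell and 370 CPM of T cell markers, had 133 CPM of H2-Aa, and PN 1216, with 13.2 and 18.6 CPM of these markers, had 1002 CPM. PN 1179, with the highest B cell markers of the PNs (152 CPM), had the highest H2-Aa (1478 CPM), and PN 1191, with 213 CPM of T cell markers, had 888 CPM. Schwann cell markers correlated with H2-Aa at r = 0.36 and rho = 0.16 (permutation adjusted p = 0.432 and 0.782). For H2-Aa this r was 0.12 without the 2 libraries farthest from the median score. Within the 6 fast-growing PNs it was -0.49, given with no test. Sensory neuron markers had negative correlations with the members over the PNs. Ciita passed by both measures (r = -0.64, permutation adjusted p = 0.0336; rho = -0.76, 0.0248), but its r was -0.49 without the 2 libraries farthest from the median score, one of them PN 1191, whose neuron score was 1.62 against 7.46 to 10.1 in the other PNs. By rank alone the relation also passed for the other members, with rho = -0.87 for H2-DMa (permutation adjusted p = 0.00409; r = -0.55, adjusted p = 0.211) and rho = -0.70 for H2-Aa (0.0448; r = -0.49, adjusted p = 0.211).

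**Figure D5:**
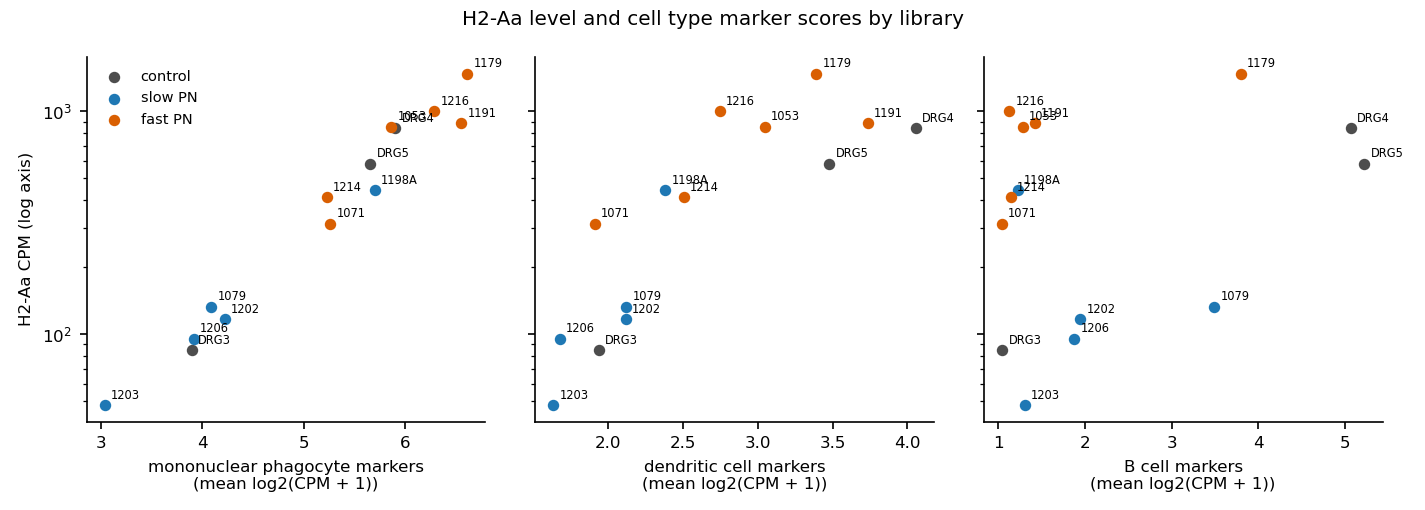
H2-Aa level in each library, as CPM on a log axis, against the mean log2(CPM + 1) of mononuclear phagocyte, dendritic cell, and B cell markers. Points are labelled libraries of the control, slow-growing, and fast-growing groups; the points follow the phagocyte score (r = 0.99 over the 11 PNs), and controls DRG4 and DRG5 stand at the highest B cell scores.

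The 8 genes outside the members whose log2(CPM + 1) was most like the mean of H2-Aa, H2-Ab1, and H2-Eb1 over all 14 libraries were Pld4 (Pearson's r = 0.986), Unc93b1 (0.984), Tnfaip8l2 (0.976), Myo1f (0.975), Themis2 (0.975), Ctss (0.974), P2ry6 (0.972), and Spi1 (0.971). Among the remaining members, r to this mean was 0.974 for Cd74, 0.920 for Ciita, 0.844 for H2-DMb1, and 0.794 for H2-DMa. These 8 genes were picked for the highest r among all genes tested outside the members. Their r lay above that of Ciita and the DM genes, which were not so picked, so this order carries no result. The points share library and depth, and no test was made.

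The other genes of the class II locus and pathway were read in the same fits, by lists written with earlier results known. Of the 5 other class II genes, H2-DMb2, H2-Oa, H2-Ob, H2-Eb2, and H2-Ea, no tested gene was called in any comparison, where 26.3% (all PNs against controls), 11.3% (slow-growing PNs against controls), 31.4% (fast-growing PNs against controls), and 1.27% (fast- against slow-growing PNs) of all genes were. Their levels in the controls came mainly from DRG4 and DRG5: H2-DMb2 was at 0.257, 14.3, and 11.7 CPM and H2-Eb2 at 0, 8.34, and 6.15 CPM in DRG3, DRG4, and DRG5. H2-Ob, a subunit of the DO inhibitor of DM that B cells express, was at 0.686, 40.7, and 38.2 CPM in the controls, and its highest level in PNs was 39.5 CPM, in 1179.

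Of the 7 promoter factors, none was called between fast- and slow-growing PNs, where 1.27% of all genes were, and 1 was called in PNs against controls, where 26.3% of all genes were. Rfx5, a DNA-binding subunit of RFX, was at 0.99 ± 0.29 (log2) between fast- and slow-growing PNs (adjusted p = 0.0881). Nfyc, a subunit of NF-Y, fell by 0.64 ± 0.17 in PNs against controls (adjusted p = 0.0132), and Creb1 was at 0.39 ± 0.14 in fast-growing PNs against controls (adjusted p = 0.0511). Of 9 genes of the interferon gamma pathway, 7 were tested between fast- and slow-growing PNs and none was called. Of the 8 tested in fast-growing PNs against controls, 1 rose, where 14.8% of all genes did, the receptor subunit Ifngr2 (0.42 ± 0.12, adjusted p = 0.0215). Irf8, a transcription factor of the myeloid lineage, was at 1.93 ± 0.57 between fast- and slow-growing PNs (adjusted p = 0.0881).

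Among 8 genes of antigen processing, none was called between fast- and slow-growing PNs, where 1.27% of all genes were. In each comparison with controls 1 of the 8 was called, where 26.3% (all PNs), 11.3% (slow-growing), and 31.4% (fast-growing) of all genes were. Ctss, which encodes cathepsin S, the protease that trims the invariant chain, was at 2.70 ± 0.66 between fast- and slow-growing PNs (adjusted p = 0.0590), and was at 6.04 to 101 CPM in slow-growing and at 102 to 360 CPM in fast-growing PNs. Lgmn, an endosomal protease, rose by 0.90 ± 0.17 in fast-growing PNs against controls (adjusted p = 0.00370). Ifi30, a thiol reductase of the endosome, fell by 2.43 ± 0.58 in slow-growing PNs (adjusted p = 0.0319) and by 1.55 ± 0.55 in all PNs against controls (adjusted p = 0.0491). It was at 14.7, 102, and 79.5 CPM in DRG3, DRG4, and DRG5. Every fast-growing PN (17.7 to 64.9 CPM) and slow-growing PNs 1079 (14.9 CPM) and 1198A (20.9 CPM) lay above DRG3, while slow-growing PNs 1202 (10.8 CPM), 1203 (6.23 CPM), and 1206 (10.7 CPM) lay below every control.

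Of 4 costimulatory ligands, Cd80, which engages CD28 on T cells, was the only one called higher in fast- than in slow-growing PNs, where 0.802% of all genes were (3.2 ± 0.67, adjusted p = 0.0484). It was at 0.304, 2.10, 1.53, 0.366, and 0.193 CPM in slow-growing PNs and at 2.52 to 16.1 CPM in fast-growing PNs. These groups did not overlap, as for 3.04% of all genes. Cd80 had 4 counts each in slow-growing PNs 1079 and 1203, and its 2 counts in 1206 lay below the floor of 3 counts. Cd40 and Cd86 were at 1.87 ± 0.54 and 1.96 ± 0.68 (adjusted p = 0.0833 and 0.136). Of 85 cell type marker genes tested, 4 passed between fast- and slow-growing PNs, where 1.27% of all genes did. The phagocyte marker Fcgr1 (2.71 ± 0.57, adjusted p = 0.0484), the dendritic cell marker Itgax (3.19 ± 0.60, adjusted p = 0.0449), and the Schwann cell marker Gfap (2.47 ± 0.37, adjusted p = 0.0317) were higher, and the fat marker Pnpla2 was lower (-2.38 ± 0.50, adjusted p = 0.0484) in fast-growing PNs. Gfap was named after its values were seen. Of the 13 phagocyte markers, 10 were higher at an unadjusted p under 0.05, where 11.9% of all genes were. The median log2 fold change was 1.75 over the phagocyte markers and -3.67 over the 12 fat markers tested, against -0.03 over all genes.

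Cd74 was also read beside 5 genes of its ligands and coreceptors. Of these, 2 were lower and none was higher in PNs against controls, where 13.4% of all genes were lower, and Cxcr2 and Cxcr4 were called in no comparison. Mif fell by 1.51 ± 0.28 (adjusted p = 0.00139) and Ddt, which encodes the related ligand D-dopachrome tautomerase, fell by 1.61 ± 0.27 (adjusted p = 0.000648) in PNs against controls. Mif was at 94.7, 77.5, and 84.1 CPM in the controls and at 11.3 to 50.1 CPM in PNs. None of the 5 was called between fast- and slow-growing PNs, where 1.27% of all genes were. Cd44, the coreceptor that signals with CD74, was at 121, 144, and 146 CPM in controls and at 214 to 402 CPM in fast-growing PNs, where it rose by 1.16 ± 0.21 against controls (adjusted p = 0.00291), as 14.8% of all genes did. In slow-growing PNs Cd44 was at 0.67 ± 0.44 against controls (adjusted p = 0.323).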

How the data were processed

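Bulk RNA-seq of 14 libraries was used. Per the labels and the submitters' processing notes, total RNA was amplified (Ovation RNA-Seq System v2), and the authors aligned reads to mm10 with TopHat2 2.0.9, and counted them per gene with featureCounts 1.5.2. The deposited counts are whole numbers without normalization. The gene annotation and strand setting are not given in the sources used here, and the authors' TMM-normalized table of the same libraries was not used.

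Counts were analysed in R 4.3.3 with edgeR 4.0.16 (filterByExpr, TMM, quasi-likelihood test, Benjamini-Hochberg adjustment over all genes tested, threshold 0.05), with only the libraries of a comparison in its fit and no covariate. The fits were tested on simulated data, and no result of that test is used here. Standard errors were taken from the F statistic. Levels are TMM-scaled CPM. Sex and batch terms were not fitted, since the labels do not give them. Limma 3.58.1, DESeq2 1.42.0, other factors and filters, covariates, and leaving out libraries were alternatives. Single ratios were compared by exact permutation of libraries and correlations by 100000 resamples (scipy 1.17.1, numpy 2.4.6). Depth was 9596773 to 17594164 counts per library, and amplified reads are not independent molecules. Library preparation batches are not given in the sources used here, and no pair of libraries held identical counts. Exon lengths and positions came from GENCODE, and 4 genes were matched by an older symbol.

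The members and gene lists were chosen with earlier results of these data known. Expression values are given for all members, at most 3 genes of lowest p per list, and the 8 genes most like the chains. They are also given for Nf1, H2-Ea, and Gfap. Other genes are named without expression values, and some genes of lowest p in a list are not named. No count column was left without a sample (0 such columns).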

Additional observations from a re-analysis of the deposited data

Results flagged for a closer look

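Slow-growing PN 1198A stood apart from the other 4 slow-growing PNs in H2-Aa (443 CPM), H2-Ab1 (231 CPM), H2-Eb1 (120 CPM), and Cd74 (1078 CPM), where its gap to the next library exceeded the critical value of Dixon's test for 5 samples. The ratio of gap to range was 0.785, 0.757, 0.820, and 0.809, taken on CPM. No such test on the log scale, which narrows a gap at the high end, is given. Of 20 groups of values examined, 4 held such a library, where chance gives about 1 in 20. The library was the same in all 4, and the 4 genes are correlated over PNs. The 4 are thus not separate events, and their number cannot be set against that rate. The phagocyte score of 1198A, 5.70, was also the highest among slow-growing PNs.

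The row of H2-Ea, the alpha chain of I-E, which is a pseudogene in the C57BL/6 reference, passed no filter and entered no comparison. It held 21 counts in slow-growing PN 1079, 8 in slow-growing PN 1202, and 67 in fast-growing PN 1216, against at most 3 in a control and at most 1 in any other PN. The same 3 PNs had the lowest H2-Eb1 to H2-Ab1 ratios, 0.296, 0.281, and 0.318, while the other PNs lay between 0.435 and 0.618. The H2 alleles of these mice, which are of mixed background, were not tested.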

How the results depend on the processing

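The alternatives changed the number of members called as follows. With the phagocyte covariate, 1 member was called for PNs versus controls and 2 for fast-growing PNs versus controls. DESeq2 called 3 members for slow-growing PNs versus controls and 5 for fast- versus slow-growing PNs. With each library left out in turn, 0 to 2 members were called for slow-growing PNs versus controls and 0 to 4 for fast- versus slow-growing PNs, and 0 in the other 2 comparisons. The other settings for these counts called 0 members, and not all of them have a share of all genes given above. The cause was not tested.

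Directions turned mostly against controls. For H2-Aa in PNs versus controls the log2 fold change was -0.02 with DESeq2, -0.03 with RLE factors, -0.15 with limma voom, -0.35 with 14 libraries in 1 fit, and -0.11 with the phagocyte covariate. With muscle and fat covariates it was -3.40 for H2-Aa and -3.08 for Cd74 in PNs, and -2.12, -2.39, -1.47, and -1.49 for H2-Aa, H2-Ab1, H2-Eb1, and Cd74 in fast-growing PNs. With the phagocyte covariate it was 0.33 for Cd74 in slow-growing PNs versus controls, -0.22, -0.65, and -0.60 for H2-Aa, H2-Ab1, and H2-Eb1 in fast-growing PNs versus controls, and -0.64, -0.51, and -0.32 for H2-DMa, H2-DMb1, and Ciita in fast- versus slow-growing PNs. Without DRG4 and DRG5, chosen after seeing the data, it was 2.10, 2.10, 0.30, 0.20, and 1.82 for H2-Ab1, H2-Eb1, H2-DMa, H2-DMb1, and Ciita in PNs, 0.95, 0.37, 0.16, 1.58, and 0.62 for H2-Aa, H2-Ab1, H2-Eb1, Cd74, and Ciita in slow-growing PNs, and 0.52, 0.53, and 2.37 for H2-DMa, H2-DMb1, and Ciita in fast-growing PNs.

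With each library left out, the value ranged from -0.45 to 0.63 for H2-Aa, -0.84 to 0.16 for H2-Ab1, -0.88 to 0.12 for H2-Eb1, and -0.08 to 0.86 for Cd74 in PNs versus controls. In fast-growing PNs versus controls it ranged from -0.24 to 0.75 for H2-Ab1, -0.25 to 0.74 for H2-Eb1, -0.49 to 0.01 for H2-DMa, -0.33 to 0.07 for H2-DMb1, and -0.97 to 0.17 for Ciita. In slow-growing PNs versus controls no direction turned with a library left out. There the value ranged from -2.42 to -1.05 for H2-Aa, -2.85 to -1.58 for H2-Ab1, and -3.41 to -1.83 for H2-Eb1. It ranged from -2.05 to -0.73 for Cd74 and from -2.68 to -1.52 for Ciita. No direction turned in fast- versus slow-growing PNs either, where H2-Aa ranged from 2.02 to 3.07. Without PNs 1079, 1179, and 1191 it was 1.91 (adjusted p = 0.366, edgeR), and 0 of 15363 genes were called. The 21 correlations among members passed with log2(CPM + 0.1) too. Depth limited no member, all of which lay above 3 counts.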
